A study of Mus musculus with 6 samples.

Results

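The rows of the deposited table with most reads in S-180 sarcoma tumours are described here. S-180 is a mouse sarcoma line. The tumours had grown subcutaneously in BALB/c nude mice, whose missing thymus leaves them without most T cells. The rows were chosen by their measured level: the mean of the 6 libraries was at least 20 CPM. This unit is a read count scaled by a TMM library size, and it takes no account of gene length. Rows with a symbol starting in mt-, ending in -ps and digits or ending in os, and the rows Ap3m1 and Gm11175, were left out. The rule gave 166 of 20160 rows. Of the 173 rows at 20 CPM or more, 7 were left out by name.

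The RGLS tumours came from 3 samples of mice that had received RGLS before the cells were injected, and the model tumours from 3 samples of mice labelled model. The series title ties RGLS to Ganoderma lucidum spores freed of their coat. Both groups share the host strain, the cell line and the labelled tissue. The sources used here do not give the dose, the duration, the age of the mice, any vehicle of the model group, or whether each sample is a mouse of its own. The p-values therefore set the group difference against the spread between these samples, which may not be the spread between mice.

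The table held 418102 to 458641 reads in RGLS libraries and 369453 to 387933 in model libraries, which was 1.79% to 1.95% of the TMM library size in RGLS and 2.09% to 2.21% in model. Genes used as expression references were low: 15 housekeeping genes had a median of 0.582 CPM and a range of 0.0319 to 15.3 CPM. Rows of 11 sarcoma and mesenchymal markers summed to 5.05 to 10.1 CPM per RGLS library and 3.86 to 4.69 CPM per model library, so these markers of the labelled tissue were present at low levels. Rows were present for 3 of 9 neutrophil and 9 of 14 lymphocyte markers, and they summed to under 1 CPM in every library. The row opposite a lymphocyte marker had 0.0390 to 2.99 CPM in RGLS libraries and 0.0575 to 0.396 CPM in model libraries. The row opposite a neutrophil marker stayed at or below 0.131 CPM in every library. With reference genes this low, whether these cells were present was not tested.

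Many mammalian genes lie in pairs on opposite strands of the same stretch of chromosome. Some pairs meet at their ends, with the last exons overlapping (tail-to-tail), some share their starts (head-to-head), and some lie inside each other. Processed pseudogenes are copies of messenger RNAs that were pasted into the genome, often inside another gene and on its other strand. A counting program can count a read for the gene on the read's strand, for the gene on the other strand, or without regard to strand, and for an overlapping pair that setting decides which row receives the read. The sources used here do not give the setting, so for an overlapped row the named gene and its partner on the other strand cannot be told apart as the origin of the reads.

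Nearly every row of the set lay at such a locus. Of the 164 members found in the annotation (GENCODE vM21, build GRCm38/mm10), 162 (98.8%) had at least 50 exonic bases covered by exons from the other strand, against 31.8% of all 19972 annotated rows. The share increased with the level of the row: it was 19.5% below 0.1 CPM, 73.1% between 1 and 5 CPM, 92.2% between 10 and 20 CPM, and 97.9% at 50 CPM and over. The level was what chose the members, so this is a description of the table and not a test.

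**Figure D1:**
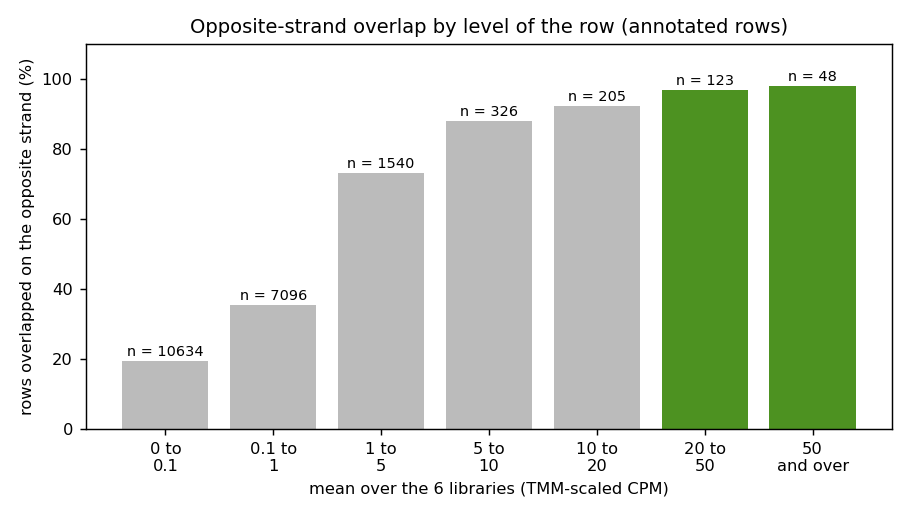
Share of annotated rows with at least 50 exonic bases covered on the opposite strand (y axis, percent) by the mean level of the row (x axis, TMM-scaled CPM), with the number of rows above each bar. The 2 green bars hold the rows at 20 CPM and over, where 96.7% and 97.9% were overlapped.

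The gene on the opposite strand was protein coding for 139 members, a pseudogene for 15 and of another kind for 8. The members themselves were mixed: 107 were annotated as protein coding, 37 as antisense transcripts, 8 as processed transcripts and 7 as lincRNAs, and 62 carried a clone-based name. Tail-to-tail pairs were the most frequent with 105 members. The row gene lay inside the opposite gene for 24 members, the opposite gene inside the row gene for 20, and 13 pairs were head-to-head. The median overlap was 894.5 exonic bases, or 26.0% of the row's exons, and 13 rows were covered in full. The overlap reached coding sequence of the opposite gene in 81 of the 139 pairs with a protein-coding gene and only other exonic parts of it in 58.

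The row of the opposite gene itself was low beside its member. For 161 members the opposite gene had a row of its own, with a median of 0.733 CPM, and 90 of these rows were under 1 CPM. The median over all rows of the table was 0.0858 CPM, so the opposite rows were not low for the table. Per exonic kilobase, 158 members lay above the opposite gene's own row, with a median ratio of 54.9, and 134 of them by more than 10-fold. A high level chose the members and not the opposite rows, so these ratios describe the table and are not a test. The ratio was largest for Gm37401, an antisense transcript at Rhoa, with 4950.5. It rests in part on length: Gm37401 had 115.7 CPM over 347 exonic bases, and Rhoa 0.505 CPM over 7494. Only 3 pairs had both genes in the set. They included Rnf146 and Echdc1 (5.83 and 5.52 CPM per kilobase) and Gm45894 and Ankrd11 (14.2 and 1.56).

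**Figure D2:**
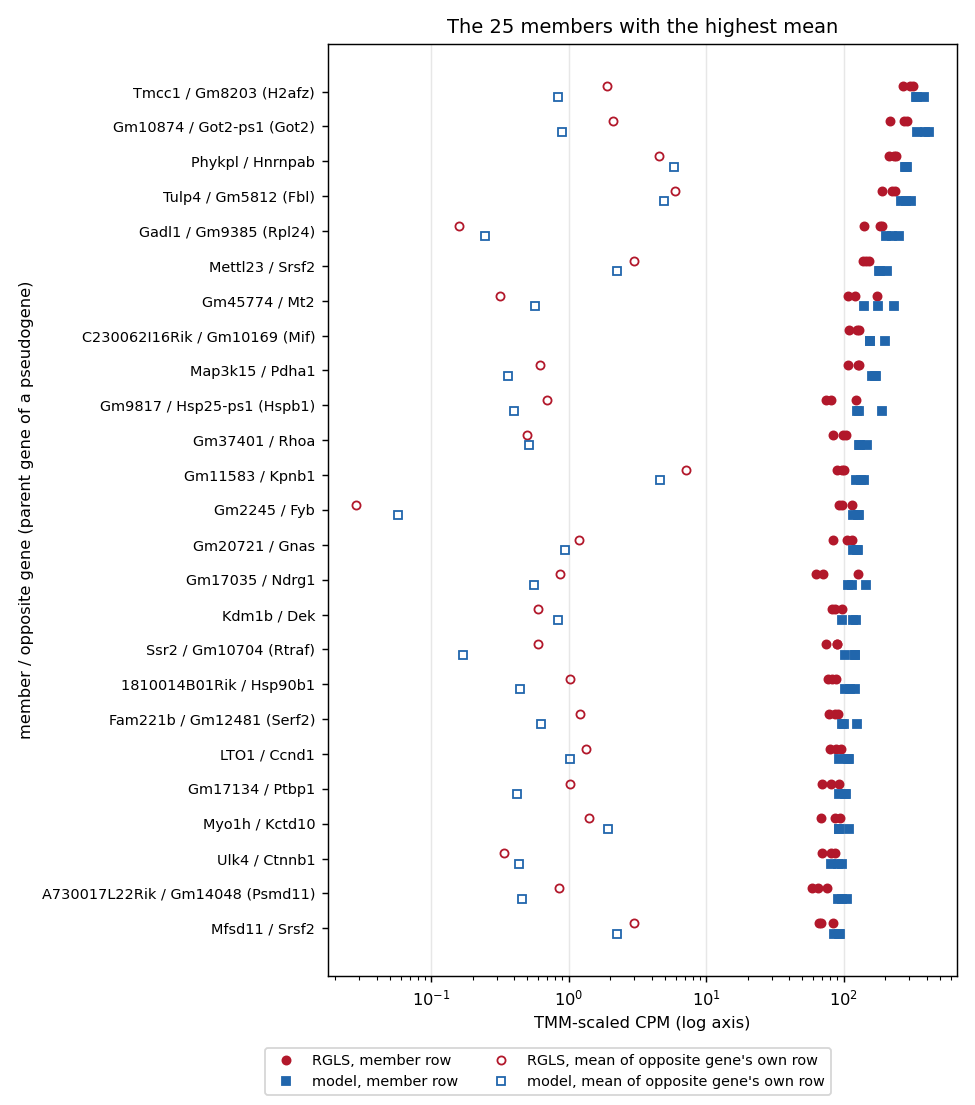
The 25 members with the highest mean, top to bottom, with CPM on a log x axis. Filled red circles (RGLS) and blue squares (model) are the 3 libraries of a group, and open symbols are the group means of the opposite gene's own row. All filled points lie above 50 CPM and the open points below 10 CPM.

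An example at Mt2 shows what such a locus looks like in sequence. Mt2 codes for a metallothionein, a short protein rich in cysteine that binds zinc and copper and that cells make in response to metals and stress. The antisense row Gm45774 (chr8:94170748-94173412, minus strand) shared 432 exonic bases with it, of which 171 were coding. The Mt2 row itself had 0.317 CPM ± 0.106 in RGLS and 0.570 ± 0.227 in model (SD, n = 3 each). A coding block of Mt2 inside the overlap (chr8:94173336-94173412, build GRCm38/mm10, reference sequence) is printed below on the Mt2 strand with its 9 cysteine codons in capitals, then on the strand of Gm45774.
Mt2, plus strand: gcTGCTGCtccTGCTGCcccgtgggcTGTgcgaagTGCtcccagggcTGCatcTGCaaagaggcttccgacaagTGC
Gm45774, minus strand: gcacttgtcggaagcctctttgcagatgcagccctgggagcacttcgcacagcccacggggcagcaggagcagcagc
The reading frame with its run of cysteine codons is on the plus strand. The row that held the reads is on the minus strand.

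The highest rows of the set lay opposite processed pseudogenes. This held for 4 of the 5 highest members and for 6 of the 10 highest. Each of the 15 pseudogenes was aligned to protein-coding transcripts to find its parent gene, and the identity was 93.4% to 100%, with at least 99% for 8 of them and 100% for 3. Over identical stretches, reads from a parent's messenger RNA and from its copy cannot be told apart. The parents' own rows were under 1 CPM in 13 of 15 cases. Most rows of the table are this low. Of 19972 annotated rows, 10634 had a mean below 0.1 CPM and 7096 had one from 0.1 to 1 CPM.

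The 6 copies among the 10 highest members matched the following parents. Tmcc1, the highest member (325 CPM on average; chr6:116018611-116193486, minus strand), held the pseudogene Gm8203, all 387 bases of which matched H2afz, the histone variant H2A.Z. Gm10874 (321 CPM) held Got2-ps1, with 99.1% identity to Got2, the mitochondrial aspartate aminotransferase. Tulp4 (250.3 CPM) held a copy of Fbl, which codes for the nucleolar methyltransferase fibrillarin. Gadl1 (199 CPM) held a stretch of 162 bases identical to Rpl24, a protein of the large ribosomal subunit. C230062I16Rik (145 CPM) held a copy of Mif, a cytokine that many tumours release. Gm9817 (120.2 CPM) lay opposite Hsp25-ps1, a copy of the small heat shock protein gene Hspb1.

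The start of the coding sequence of Mif and the matching stretch of Gm10169, its copy opposite C230062I16Rik (chr7:29965326-29965565, minus strand, GRCm38/mm10), are shown because they differ so little. The 2 bases that differ are in capitals.
Gm10169: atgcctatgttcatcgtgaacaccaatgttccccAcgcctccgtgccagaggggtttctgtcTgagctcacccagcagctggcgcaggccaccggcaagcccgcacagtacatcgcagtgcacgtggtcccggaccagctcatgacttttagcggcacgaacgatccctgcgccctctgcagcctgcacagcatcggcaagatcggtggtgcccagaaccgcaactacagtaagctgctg
Mif: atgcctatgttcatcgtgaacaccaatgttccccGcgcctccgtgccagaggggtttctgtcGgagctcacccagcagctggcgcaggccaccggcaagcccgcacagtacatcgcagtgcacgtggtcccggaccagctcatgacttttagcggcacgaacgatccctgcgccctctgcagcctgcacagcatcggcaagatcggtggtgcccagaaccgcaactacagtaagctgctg
For Got2-ps1 (chr5:138364890-138365129, minus strand, GRCm38/mm10) and the coding bases 424 to 663 of Got2, the 6 bases that differ are in capitals.
Got2-ps1: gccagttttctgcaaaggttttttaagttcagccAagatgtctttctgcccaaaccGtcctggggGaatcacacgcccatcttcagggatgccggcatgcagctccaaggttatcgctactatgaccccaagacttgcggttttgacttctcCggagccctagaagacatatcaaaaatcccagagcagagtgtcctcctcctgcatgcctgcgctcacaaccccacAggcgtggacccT
Got2: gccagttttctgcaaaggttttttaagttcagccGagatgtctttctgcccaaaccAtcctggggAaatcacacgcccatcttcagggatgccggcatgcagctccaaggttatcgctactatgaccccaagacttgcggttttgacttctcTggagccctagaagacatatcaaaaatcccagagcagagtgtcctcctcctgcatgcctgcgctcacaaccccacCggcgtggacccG
Both pseudogenes are on the strand opposite their member. The table does not record where in the member's exons the reads fell.

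Among the members, the mean level ran from 20.04 to 325 CPM with a median of 33.04. There were 44 members at 50 CPM or more and 16 at 100 or more. The lowest inside the limit were Gm17300 (20.07 CPM, opposite Snhg3), Gm36026 (20.07, opposite Krt8) and Hip1r (20.04, opposite Vps37b). The highest outside it were Gm13008 (19.7, opposite Eloa), 5430405H02Rik (19.4, opposite Tgif2) and Gm26616 (19.2, opposite Ppp1r15b). Each member had between 248 and 7283 reads per library, with a median of 652.5. The median coefficient of variation was 11.0% among RGLS libraries and 8.96% among model libraries.

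Only 4 members had no call of overlap. Gsdme, which codes for a pore-forming gasdermin, shares no exonic base with a gene opposite, but Mpp6 on the other strand overlaps its gene body. Tlcd3b shared 25 bases with Aldoa, the glycolytic aldolase, under the minimum of 50. Peds1, a plasmalogen desaturase, and Nopchap1 had no symbol in the annotation used. Their means were 22.7 CPM for Gsdme, 35.5 for Tlcd3b, 31.1 for Peds1 and 20.4 for Nopchap1. In the comparison of the groups given below, their log2 fold changes were -0.37, -0.19, -0.43 and -0.15 in the same order, and none passed the threshold. Without RGLS library 1 the value was -0.011 for Tlcd3b and -0.25 for Peds1.

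Compared between the groups, the members were mostly lower in RGLS tumours by a modest amount. Tested with limma on log2(CPM + 1) over the 2319 rows that reached 1 CPM in 3 or more libraries, 4 members were called lower at an adjusted p under 0.05, which is 2.41% of the 166 beside 0.517% of all rows tested called lower. They were Tti2, A730017L22Rik, Gm10874 and Gm37401. By limma 0 members were called higher, against 0.949% of all rows, and 0 had an unadjusted p under 0.05 in that direction while 98 had one in the lower direction. With edgeR on the recovered reads 3 members were called lower and 0 higher, beside 11 lower and 22 higher of all 2319 rows. With DESeq2 0 members were called in either direction, beside 4 lower and 50 higher of all rows.

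The shift ran through the set. In 102 members (61.4%) every RGLS library lay below every model library, against 22.1% of all rows tested. In 1 member every RGLS library lay above, against 4.53% of all rows, and in 63 the groups overlapped. The log2 fold change was negative in 162 members (97.6%), against 73.5% of all rows. Its median was -0.30 (quartiles -0.42 and -0.22), beside -0.17 over all rows tested, a difference of -0.13 on the log2(CPM + 1) scale. The rows tested reached down to 1 CPM, so these comparisons were not matched by level. With a filter of 10 CPM the median over all 391 rows tested, the 166 members included, was -0.28. A median near that of the members was therefore not particular to them. The shares of rows without overlap between the groups were not compared at a like level.

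The size of the members' shift depended on how the libraries were scaled and on the level of the row. The summed level of the members was 6670, 7794 and 7772 CPM in the RGLS libraries, against 9543, 8959 and 9726 CPM in the model libraries, and their share of the table was 39.2% ± 1.70 in RGLS and 43.7% ± 0.736 in model (SD, n = 3 each). Under DESeq2 size factors the median of the members was -0.08 and 124 were negative, and under quantile normalization it was -0.01 with 91 negative and 74 positive. With every library set to the same median over the rows tested, 153 were negative. Leaving out RGLS library 3 gave 36 members called lower, while 106 of all 2319 rows tested were called lower and 103 higher. Leaving out RGLS library 2 gave 2 members (5 of all rows). Model libraries 1 and 2 gave 1 member each (11 and 4 of all rows), and RGLS library 1 or model library 3 gave 0 (3 of all rows each).

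Among overlapped rows the median log2 fold change was -0.11 at 1 to 2 CPM, -0.18 at 2 to 5, -0.22 at 5 to 10, -0.27 at 10 to 20, -0.29 at 20 to 50 and -0.37 at 50 CPM and over. Without a pseudocount these medians were -0.19, -0.25, -0.25, -0.29, -0.29 and -0.37. Annotated rows with fewer than 50 exonic bases covered had a median of 0.01 over 492 rows, beside -0.19 over 1813 overlapped rows. These 2 classes were not matched by level. Over 64 of the opposite genes' own rows that were tested and were not members themselves, the median was -0.02, 34 were negative and 0 were called by limma (5 were higher at an unadjusted p under 0.05).

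**Figure D3:**
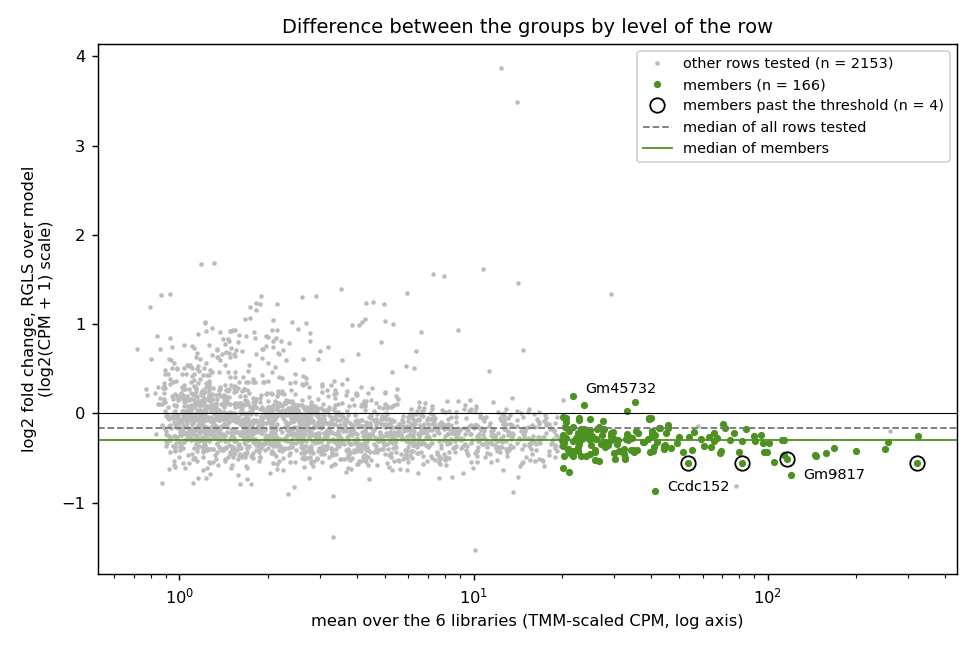
Log2 fold change of RGLS over model on the log2(CPM + 1) scale (y axis) against mean level (x axis, log), with members in green, other rows tested in grey and the 4 members past the threshold circled. The green line is the median of the members (-0.30) and the dashed line that of all rows tested (-0.17).

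Markers of other tissue moved with the groups. The 8 rows lying opposite skeletal muscle genes summed to 29.1 to 69.7 CPM per RGLS library, against 1.54 to 2.71 CPM per model library. In 7 of the 8 every RGLS library lay above every model library, against 4.53% of all rows tested. Only 3 of these 8 rows reached the level needed for testing. The muscle genes' own 14 rows summed to 13.1 to 14.0 CPM per RGLS library and 7.58 to 9.02 per model library, with 4 of the 14 apart in this direction and none at 0 in all libraries. The own rows of 8 nerve genes summed to 2.77 to 3.55 CPM in RGLS and 0.0571 to 0.460 CPM in model, with 2 of the 8 apart in this direction. The sums over the own rows of 12 macrophage and 7 epidermis markers went in the direction of the members. The macrophage rows summed to 12.7 to 13.8 CPM per RGLS library and 15.01 to 17.1 CPM per model library. In 1 of these 12 rows, though, every RGLS library lay above every model library, so the sum does not stand for each row. The epidermis rows summed to 2.45 to 3.12 CPM per RGLS library and 3.40 to 5.48 CPM per model library, and 0 of the 7 had every RGLS library above. None of these rows was at 0 in all libraries. No member lay opposite a gene of any of these marker lists, and the part of such cells in the members' difference was not tested. In bulk tumours, fewer cells of a type and less RNA per cell cannot be told apart.

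Tti2 had the smallest adjusted p. It codes for a partner of TELO2 in the assembly of large kinases such as mTOR, and it overlaps Mak16, a gene needed for the large ribosomal subunit, tail-to-tail over 882 exonic bases, of which 372 are coding in Mak16. Tti2 (chr8:31150315-31164702, plus strand) had 41.3, 39.6 and 48.9 CPM in the RGLS libraries, against 60.0, 64.1 and 68.4 CPM in the model libraries. The groups did not overlap. The log2 fold change was -0.56 (SE 0.12; adjusted p = 0.0350 by limma). The Mak16 row itself had 1.41 CPM ± 0.334 in RGLS and 1.52 ± 0.451 in model (SD, n = 3 each).

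A730017L22Rik lay opposite Gm14048, a copy of Psmd11, which codes for a lid subunit of the 26S proteasome. It had 58.3, 64.5 and 76.1 CPM in the RGLS libraries, against 96.7, 90.1 and 106 CPM in the model libraries. All RGLS values were below all model values, with a log2 fold change of -0.56 (SE 0.13; adjusted p = 0.0358 by limma).

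Gm10874, opposite the copy of Got2, had 218.2, 273.8 and 289.5 CPM in the RGLS libraries, against 390.0, 339.9 and 415.6 CPM in the model libraries. The groups did not overlap, and the log2 fold change was -0.56 (SE 0.13; adjusted p = 0.0358 by limma).

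Gm37401 (chr9:108337089-108338273, minus strand) lay tail-to-tail with Rhoa, the small GTPase that drives actin stress fibres and cell contraction. It had 83.5, 98.2 and 104 CPM in the RGLS libraries, against 131.6, 128.8 and 148 CPM in the model libraries. The groups did not overlap, and the log2 fold change was -0.51 (SE 0.12; adjusted p = 0.0429 by limma). The overlap covered 324 bases outside the Rhoa coding sequence, and the Rhoa row had 35 reads in all over the RGLS libraries and 27 over the model libraries.

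Each of these 4 calls was lost under most other settings. Tti2, A730017L22Rik and Gm10874 were called lower in 6 of 18 alternatives and Gm37401 in 5. The largest adjusted p over them was 0.523 for Gm37401, and the sign was negative in all 18 for each. When 1 library was left out, all 4 were called by limma without RGLS library 3 (adjusted p between 0.0070 and 0.0146), and none of the 4 without any other library (adjusted p between 0.0508 and 0.241). Without RGLS library 3 limma also called C230062I16Rik, Map3k15, Gm11583, Gm36026, Rnd2, 1810014B01Rik and Gm44170, which are described below (adjusted p between 0.0228 and 0.0461). Calls rose over the whole table in that fit, with 106 of 2319 rows called lower and 103 higher.

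**Figure D4:**
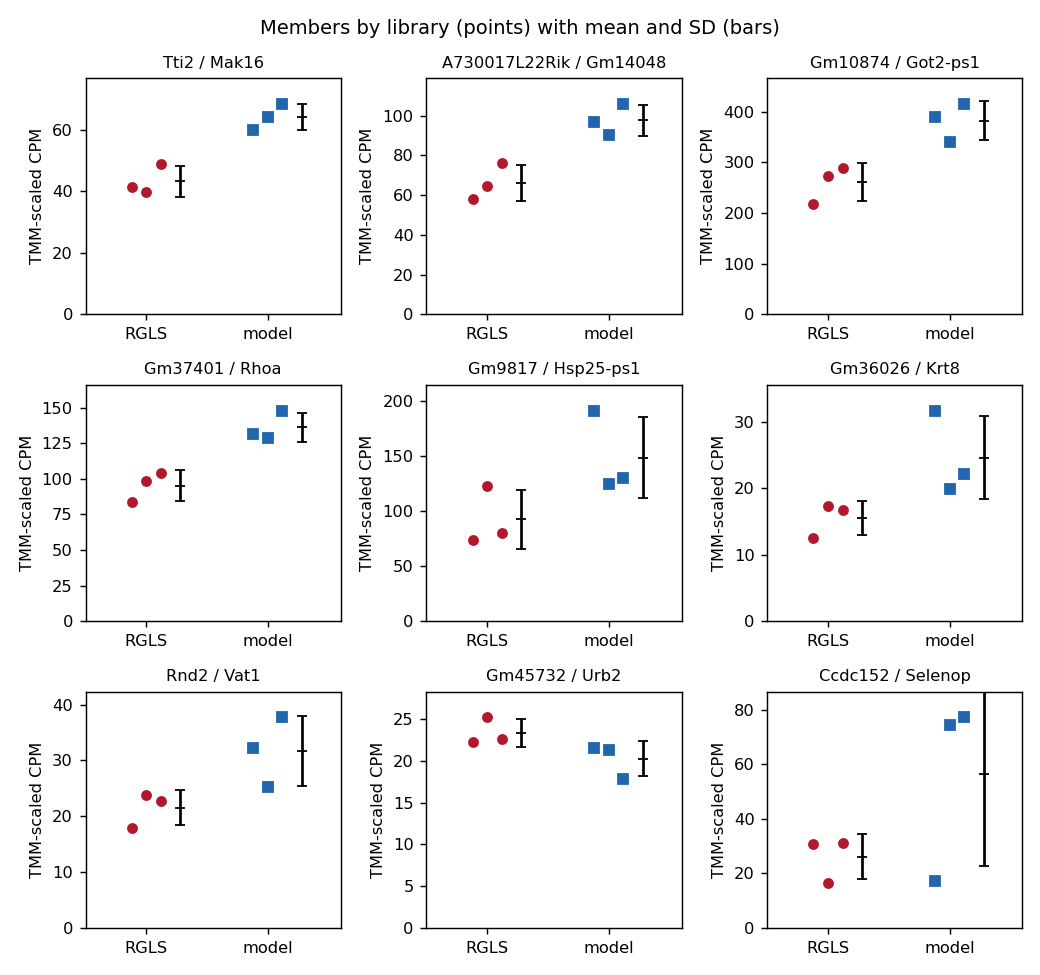
CPM (y axis) of 9 members in the 3 RGLS libraries (red circles, left) and the 3 model libraries (blue squares, right), with group mean and SD as bars. The upper 4 panels in reading order are the members past the threshold, in which every RGLS point lies below every model point, while Ccdc152 has overlapping groups.

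Other large differences without overlap between the groups were in rows that missed the threshold. Gm9817, opposite the Hspb1 copy, had 73.7, 122.6 and 80.2 CPM in RGLS, against 191, 124 and 129.9 CPM in model, with a log2 fold change of -0.69 (SE 0.18; adjusted p = 0.0589 by limma). RGLS library 2 came close to model library 2, and without it the value was -0.91 (adjusted p = 0.0139 by limma). Gm36026, head-to-head with the keratin gene Krt8, had 12.6, 17.3 and 16.8 CPM in RGLS, against 31.7, 19.96 and 22.1 CPM in model (log2 fold change -0.61, adjusted p = 0.0646 by limma). Rnd2, which codes for a small GTPase and lies head-to-head with Vat1, had 17.9, 23.8 and 22.7 CPM in RGLS, against 32.2, 25.3 and 37.7 CPM in model (log2 fold change -0.53, adjusted p = 0.0788 by limma).

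In the other direction Gm45732, inside Urb2, a ribosome biogenesis gene, was the single member with all RGLS libraries above all model libraries. It had 22.2, 25.2 and 22.6 CPM in RGLS, against 21.6, 21.3 and 17.8 CPM in model. The gap between the nearest libraries was under 1 CPM and the log2 fold change of 0.20 (SE 0.13) did not pass (adjusted p = 0.390 by limma).

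The largest fold change of the set belonged to Ccdc152, named here after its values were seen. It overlaps the 3' end of Selenop, which codes for the plasma selenium carrier selenoprotein P. It had 30.7, 16.6 and 31.2 CPM in RGLS, against 17.4, 74.4 and 77.2 CPM in model. Model library 1 lay among the RGLS libraries, so the groups overlapped, and the log2 fold change of -0.87 (SE 0.39) did not pass (adjusted p = 0.195 by limma). Gm7008, also named after its values were seen and opposite Ifrd1, had the next largest among overlapping groups, -0.66 with 12.7, 19.0 and 15.9 CPM in RGLS, against 26.7, 17.1 and 35.3 CPM in model.

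By the role of the gene on the other strand (or the parent of its pseudogene), the members were sorted by hand after the values were known. The largest named group was 27 members opposite genes of signalling, adhesion and cytoskeleton. Another 27 lay opposite genes of protein folding, secretion, membrane traffic and turnover. There were 25 at genes of RNA processing, ribosome assembly and translation, 24 at cell division, DNA, chromatin and nuclear transport, and 17 at metabolism, mitochondria and metals. The other 46 were not assigned. The share of members without overlap between the groups, lower in RGLS, was 61.4% over the whole set, and differences between the role groups were not tested. Group medians of the log2 fold change ran from -0.26 to -0.37, beside -0.17 over all rows tested.

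**Figure D5:**
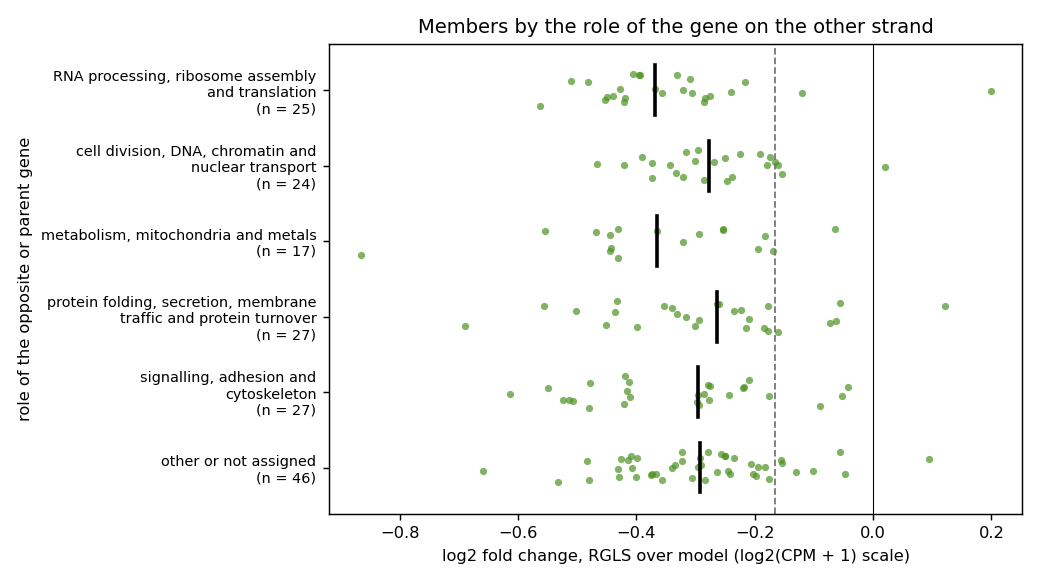
Log2 fold change of each member (x axis, log2(CPM + 1) scale) by the role of the gene on the other strand, with the group median as a black bar and the median of all rows tested as a dashed line. Medians lie between -0.37 and -0.26, and the points of all groups overlap.

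At RNA-processing genes the RGLS libraries were lower in most members. In 21 of 25 every RGLS library lay below every model library, beside 61.4% of all members and 22.1% of all rows. The median was -0.37. Tti2 was the 1 member that passed the threshold (0.517% of all rows were called lower). Phykpl, an amino acid catabolism gene tail-to-tail with Hnrnpab, a nuclear RNA-binding protein, had 213, 231 and 238.7 CPM in RGLS, against 289, 285.9 and 277.7 in model (log2 fold change -0.32, adjusted p = 0.103 by limma). Mettl23 overlaps Srsf2, a splicing factor, and had 138, 146 and 151.5 CPM in RGLS, against 184, 181.9 and 207.7 CPM in model (-0.39, adjusted p = 0.0646 by limma).

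The members at copies of Fbl and Rpl24 were also apart. Tulp4 had 188.4, 235.1 and 225.3 CPM in RGLS, against 284.6, 259.2 and 309.3 CPM in model (log2 fold change -0.40, adjusted p = 0.0836 by limma). Gadl1 had 139.9, 189.2 and 182.8 CPM in RGLS, against 253.1, 204.4 and 225.7 CPM in model (log2 fold change -0.42, adjusted p = 0.0951 by limma).

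Srsf2 had a further overlapped row, Mfsd11, with 66.5, 68.6 and 83.7 CPM in RGLS, against 92.1, 85.3 and 93.2 CPM in model (log2 fold change -0.31). Gm17134, inside the splicing repressor gene Ptbp1, averaged 80.8 CPM ± 11.5 in RGLS and 99.6 ± 6.35 in model (log2 fold change -0.31, SD, n = 3 each). Of the 10 tested rows opposite genes of the RNA processing list, 6 were members, and 0 of the 10 passed limma's threshold. Over all rows tested 0.949% were called higher and 0.517% lower.

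At genes of cell division and chromatin, 16 of 24 members had every RGLS library below every model library, with a median of -0.28. Over all members this share was 61.4%, and over all rows 22.1%. Of the 24, 0 passed limma's threshold (0.517% of all rows were called lower and 0.949% higher). Tmcc1, opposite the H2afz copy, had 267.6, 317.6 and 304.7 CPM in RGLS, against 381.8, 334.0 and 342.3 CPM in model (log2 fold change -0.25, adjusted p = 0.195 by limma). Gm11583, inside the nuclear import receptor gene Kpnb1, had 89.1, 96.8 and 100.03 CPM in RGLS, against 122.5, 140.4 and 133.7 in model (-0.47, adjusted p = 0.0503 by limma). In both rows every RGLS library lay below every model library.

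The 2 members opposite genes of the cell cycle list had overlapping groups. LTO1, opposite the 3' end of Ccnd1, which codes for cyclin D1, averaged 87.2 CPM ± 7.72 in RGLS and 103.1 ± 9.57 in model, and Exosc9, opposite Ccna2 (cyclin A2), averaged 67.6 ± 6.05 in RGLS and 75.6 ± 3.75 in model (SD, n = 3 each). Their log2 fold changes were -0.24 and -0.16, and neither passed the threshold. Of the 9 tested rows opposite genes of this list 0 passed limma's threshold (0.517% of all rows were called lower and 0.949% higher).

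At metabolic genes 9 of 17 members had every RGLS library below every model library, beside 61.4% of all members and 22.1% of all rows. The median was -0.37, and Gm10874 passed (0.517% of all rows were called lower). Map3k15, tail-to-tail with Pdha1, a subunit of pyruvate dehydrogenase that links glycolysis to the citric acid cycle, had 107.0, 126.9 and 129.7 CPM in RGLS, against 161.6, 168.5 and 172.3 CPM in model (log2 fold change -0.47, SE 0.12, adjusted p = 0.0503 by limma). Gm45774, opposite Mt2, had 107.6, 174.0 and 119.9 CPM in RGLS, against 230.3, 139.3 and 177.4 CPM in model. Its groups overlapped and the log2 fold change was -0.44 (adjusted p = 0.161 by limma).

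At protein folding and traffic genes 17 of 27 members were apart in the lower direction, beside 61.4% of all members and 22.1% of all rows. The median was -0.26, and A730017L22Rik passed (0.517% of all rows were called lower). 1810014B01Rik, opposite coding sequence of Hsp90b1, the endoplasmic reticulum chaperone GRP94, had 76.2, 82.6 and 87.3 CPM in RGLS, against 111.4, 102.8 and 120.0 CPM in model (-0.44, adjusted p = 0.0595 by limma). Acat3, opposite the chaperonin subunit gene Tcp1, averaged 58.2 ± 5.46 CPM in RGLS and 72.7 ± 6.22 in model (log2 fold change -0.32). Gm44170, inside Sec61a1, the channel through which proteins enter the endoplasmic reticulum, averaged 67.6 ± 2.69 CPM in RGLS and 92.0 ± 11.1 in model (-0.43, adjusted p = 0.0646 by limma; SD, n = 3 each).

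Cntd1, opposite the autophagy gene Becn1, averaged 52.2 ± 5.94 CPM in RGLS and 60.3 ± 0.204 in model. Grtp1, opposite the lysosomal membrane gene Lamp1, averaged 36.7 ± 2.83 CPM in RGLS and 34.1 ± 7.28 in model, a log2 fold change of 0.12 that did not pass (adjusted p = 0.660 by limma; SD, n = 3 each). Its libraries overlapped, with 34.98, 39.97 and 35.15 CPM in RGLS, against 41.5, 33.8 and 27.0 CPM in model.

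At signalling and cytoskeleton genes 16 of 27 members were apart in the lower direction, beside 61.4% of all members and 22.1% of all rows. The median was -0.30, and Gm37401 passed (0.517% of all rows were called lower). Of the 11 tested rows opposite genes of the adhesion list, 3 were members and 2 passed, both lower, namely Gm37401 and Ap3m1, which the rule left out (0.517% of all rows were called lower). Of the other members at this list, Ulk4, opposite Ctnnb1 (beta-catenin), averaged 79.1 ± 8.498 CPM in RGLS and 89.4 ± 7.79 in model, and Daglb, opposite the GTPase gene Rac1, averaged 60.8 ± 5.67 in RGLS and 70.8 ± 6.38 in model (SD, n = 3 each). Their groups overlapped, with log2 fold changes of -0.18 and -0.22. C230062I16Rik, opposite the Mif copy, had 109.0, 128.4 and 124.8 CPM in RGLS, against 154.5, 154.9 and 199.6 in model (-0.48, adjusted p = 0.0589 by limma).

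Gm17035, inside the hypoxia-induced gene Ndrg1, had 62.5, 127.0 and 71.0 CPM in RGLS, against 146.1, 106.7 and 115.2 CPM in model. RGLS library 2 lay among the model libraries, and the log2 fold change of -0.55 (SE 0.20) did not pass (adjusted p = 0.123 by limma). Without RGLS library 2 it was -0.86 (adjusted p = 0.00932 by limma), and without RGLS library 1 it was -0.35. Tlcd3b, beside Aldoa, averaged 33.3 ± 7.27 CPM in RGLS and 37.7 ± 1.98 in model (SD, n = 3 each).

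Some sense genes had several overlapped rows, which are not independent readings of a tumour. At Serf2 the copy opposite Fam221b and the gene itself opposite Serinc4 gave log2 fold changes of -0.34 and -0.13. At Coro1c, which codes for an actin-binding coronin, Gm17122 gave -0.21 and 2010001K21Rik, opposite a copy, gave -0.51. None of these members passed the threshold, and the differences between them were not tested.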

How the data were processed

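RNA from 3 RGLS and 3 model tumours was sequenced. Per the labels' protocols, total RNA went into a SMARTER mRNA-Seq library kit. Bowtie2, HTSeq and mm10 are named in the submitters' processing notes. The sources used here give no strand setting, annotation or filter. The authors deposited TMM-scaled CPM in 1 table of 20160 rows, with no column of another sample. The unit was read from the table's name and its values. All values were whole multiples of the value of 1 read within 0.001 of a read (100%), so reads were recovered, and 1 read was worth 0.0390 to 0.0575 CPM.

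Rows were placed in GENCODE vM21 (GRCm38, the assembly of mm10): 19972 matched, of which 240 by an older symbol, and 188 did not. Exonic overlap on the opposite strand of at least 50 bases counted. Pseudogene parents were the best plus-strand match by blastn 2.17.0. Sequences are from the GENCODE transcripts.

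Groups were compared on log2(CPM + 1) with limma 3.58.1 in R 4.3.3, using an intensity trend and 2-sided p-values. These were adjusted by Benjamini-Hochberg over the 2319 rows that reached 1 CPM in 3 or more libraries, with a threshold of 0.05. Fold changes on this scale understate the change of low rows. The count tests on recovered reads, edgeR 4.0.16 and DESeq2 1.42.0, were alternatives, as were other pseudocounts (0.1 and 5), filters, scalings, a replicate block and leaving out each library. On simulated data limma recovered 58 of 100 rows changed 2-fold and 93 of 100 changed 4-fold among 2312 rows tested. It also called 4 unchanged rows. The simulation drew rows from all levels tested, with a common spread and no shift between libraries. These rates therefore do not cover differences as small as the members' median. No pair of libraries was a duplicate (chi-square per degree of freedom 3.57 to 10.5).

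Members were named by rule: the 12 highest, those past the threshold, the 6 largest differences in each direction without overlap between groups, the 3 rows on each side of the limit, those without overlap, and up to 3 per functional gene list. Others are named as chosen after their values were seen. The members, lists and tests were chosen with earlier results of these data known, and the role groups were sorted by hand. A few named members and their partners are not reported here.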

Additional observations from a re-analysis of the deposited data

How the results depend on the processing

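The count of members called lower (4 in the reported fit) was 4 with a pseudocount of 5 and 3 with edgeR. It was 0 with a pseudocount of 0.1, without the intensity trend, with DESeq2, with quantile normalization, and with the same median over rows tested, within overlapped and other rows, or over members. It was 38 without a filter on low values (20160 rows tested), 54 with a filter of 10 CPM (391 rows tested) and 41 with a replicate block (2319 rows tested). The count of members called higher was 0 in every setting. Over all rows, 22 were called higher and 12 lower. These counts were 9 and 4 with a pseudocount of 0.1, 208 and 67 without a filter, 4 and 84 with the 10 CPM filter, and 11 and 3 without the trend. They were 20 and 12 with a pseudocount of 5, and 22 and 11 with edgeR. With the same median within overlapped and within other rows they were 23 and 8. They were 50 and 4 with DESeq2, 7 and 2 with quantile normalization, 10 and 4 with the same median over rows tested, 54 and 2 with the same median over members, and 111 and 120 with the block. Leaving out each library in turn gave 7 to 103 higher, 3 to 106 lower, 0 to 36 members lower and a median of the members of -0.35 to -0.25. The cause of these moves was not tested. The same median over members was chosen after seeing the data.

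The median of the members was negative under every setting but the same median over members. It was -0.20 with the same median over rows tested, -0.084 with DESeq2, -0.013 with quantile normalization, -0.13 with the same median within overlapped and within other rows, and 0.0012 with the same median over members. The share of annotated members with an opposite-strand gene (98.8%) was 92.7% with an overlap of at least 200 bases, 95.3% at a mean of at least 10 CPM and 100% (44 of 44) at 50 CPM.

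The labels do not say whether replicate numbers pair the samples, and the values do not settle it. The deviations of same-numbered libraries had correlations of 0.0044, -0.0056 and 0.38. RGLS libraries 1 and 2 each correlated best with a model library of another number, and RGLS library 3 with model library 3. With a replicate block 41 members were called lower, and over all 2319 rows tested 120 were called lower and 111 higher.

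Of 630 values of 35 named members under alternatives, 32 changed sign, none of them called in the reported fit. With quantile normalization the log2 fold change was 0.11 for Tmcc1, 0.17 for Mettl23, 0.033 for Gm45774, 0.081 for C230062I16Rik, 0.092 for Tlcd3b, 0.072 for Nopchap1, 0.19 for Ulk4, 0.15 for Daglb, 0.14 for LTO1, 0.16 for Exosc9, 0.053 for Gm17134, 0.036 for Mfsd11 and 0.14 for Cntd1. With the same median over members it was 0.051 for Tmcc1, 0.0057 for Hip1r, 0.11 for Tlcd3b, 0.15 for Nopchap1, 0.12 for Ulk4, 0.083 for Daglb, 0.062 for LTO1, 0.14 for Exosc9 and 0.091 for Cntd1. With DESeq2 it was 0.036 for Tlcd3b, 0.10 for Nopchap1, 0.043 for Ulk4, 0.069 for Exosc9 and 0.015 for Cntd1. With the same median within overlapped and within other rows it was 0.0019 for Ulk4 and 0.017 for Exosc9. Leaving out each library in turn, Nopchap1 ranged from -0.54 (without RGLS library 2) to 0.16 (without model library 1), with 0.082 without RGLS library 3, and Grtp1 from -0.032 (without model library 3) to 0.27 (without model library 1). The cause of these changes of sign was not tested.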

Other observations

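The 7 rows at 20 CPM or more that were left out by name included 3 past limma's threshold. Ap3m1, opposite the focal adhesion gene Vcl, had a mean of 169 CPM over the 6 libraries and a log2 fold change of -0.67 (limma adjusted p = 0.00436). Gm11175, opposite the AP-1 gene Jund, had 77.8 CPM and a log2 fold change of -0.82 (limma adjusted p = 0.000859). The mitochondrial row mt-Co1 had 29.2 CPM and a log2 fold change of 1.33 (limma adjusted p = 0.0167).

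Nopchap1 had 14.4, 31.5 and 12.7 CPM in the RGLS libraries, against 31.8, 14.0 and 18.1 CPM in the model libraries. Values near 31 CPM stood in RGLS library 2 and model library 1, and the other 4 libraries lay at 18.1 CPM or below. The log2 fold change of Nopchap1 was -0.15 (SE 0.28; adjusted p = 0.782 by limma).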
